A study of Mus musculus with 2 samples.

Results

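The interferon-inducible GTPases described here are 10 mouse genes of the immunity-related GTPase and guanylate-binding protein families: Irgm1, Irgm2, Igtp, Iigp1, Ifi47, Tgtp1, Tgtp2, Gbp2, Gbp3 and Gbp7. They were taken by gene symbol from the probe annotation of the arrays, with all their probes and both arrays. Of these 10 genes, 9 had a probe, 13 probes in all, among 26883 genes with a named probe. Tgtp1 had no probe of its own name. The cells were a glioblastoma stem cell line grown as neurospheres in serum-free medium with B27, N2, EGF and bFGF, which came from mouse brain tumours induced de novo by the SB transposon. The Stat5b-knockdown cells carried a lentiviral short hairpin RNA against Stat5b, stably, and the control cells carried a lentiviral non-target hairpin. Each was measured on 1 single-colour array, so both share the tumour line, the medium and a lentiviral hairpin, and no difference given here has a replicate check, a test or a p-value. The number of hairpins used and whether the transduced cells were cloned were not given in the sources used here.

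Immunity-related GTPases are among the most strongly interferon gamma-induced proteins of mouse cells and protect them from bacteria and parasites that live in vacuoles. A small regulatory group, Irgm1, Irgm2 and Igtp, sits on the cell's own membranes and keeps the effector group, here Ifi47, Tgtp1, Tgtp2 and Iigp1, in its inactive form, while effectors gather on the vacuole of the pathogen and break it. Guanylate-binding proteins such as Gbp2, Gbp3 and Gbp7 are larger GTPases that coat the same vacuoles and exposed bacteria and that promote inflammasome signalling. Their genes are switched on in part through interferon regulatory factors, while Stat5b, the gene targeted here, is a transcription factor that cytokine receptors activate through Janus kinases.

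Values are processed signals in scanner units, which are background-corrected by the scanner software. Differences are log2 levels in Stat5b-knockdown cells minus control cells, after each array's 75th percentile was set to 0. Its signal was 493.7 on the Stat5b-knockdown array and 493.3 on the control array. The value after ± combines the errors that the scanner software gives for the signals on both arrays. For a gene with several probes it treats them as independent and leaves out the spread between them. It does not cover the spread between cultures. Different probes of 1 gene differed with an SD of 0.310 over 7244 genes, and replicate spots of 1 probe with an SD of 0.0558. A probe is said to clear background where the scanner software marked it as well above background, which held for 33150 probes (58.6%) on the Stat5b-knockdown array and 33701 (59.5%) on the control array. A gene counted as measured where at least 1 probe cleared background on both arrays, which 16354 genes did, and a log2 difference of 1 or more in size is called 2-fold higher or lower. The targeted gene was lower, as its label says: one Stat5b probe had a signal of 497.7 in Stat5b-knockdown cells and 1991 in control cells, a difference of -2.0 ± 0.20, and a dimmer one had 7.49 in Stat5b-knockdown cells and 14.72 in control cells and cleared background in control cells alone. Stem cell markers Nes (-0.20 ± 0.20) and Vim (-0.12 ± 0.20) were measured, Sox2 and Fabp7 cleared background on neither array, Olig2 did so in Stat5b-knockdown cells alone and Gfap in control cells alone.

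Of the 10 GTPase genes, 5 were measured on both arrays, all 5 lay above 0, and 2 of them passed 2-fold upward in Stat5b-knockdown cells while 0 passed it downward. Of all measured genes 3.67% passed 2-fold upward and 2.41% downward. The median of the 5 was 0.76, beside 0.01 over all measured genes, of which 51.2% lay above 0. The remaining genes were not measured on both arrays: 2 cleared background in Stat5b-knockdown cells alone, 2 on neither array and 1 had no probe. The 5 are thus the genes bright enough to be measured on both arrays and not the whole group, so their count and median describe these genes alone.

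**Figure D1:**
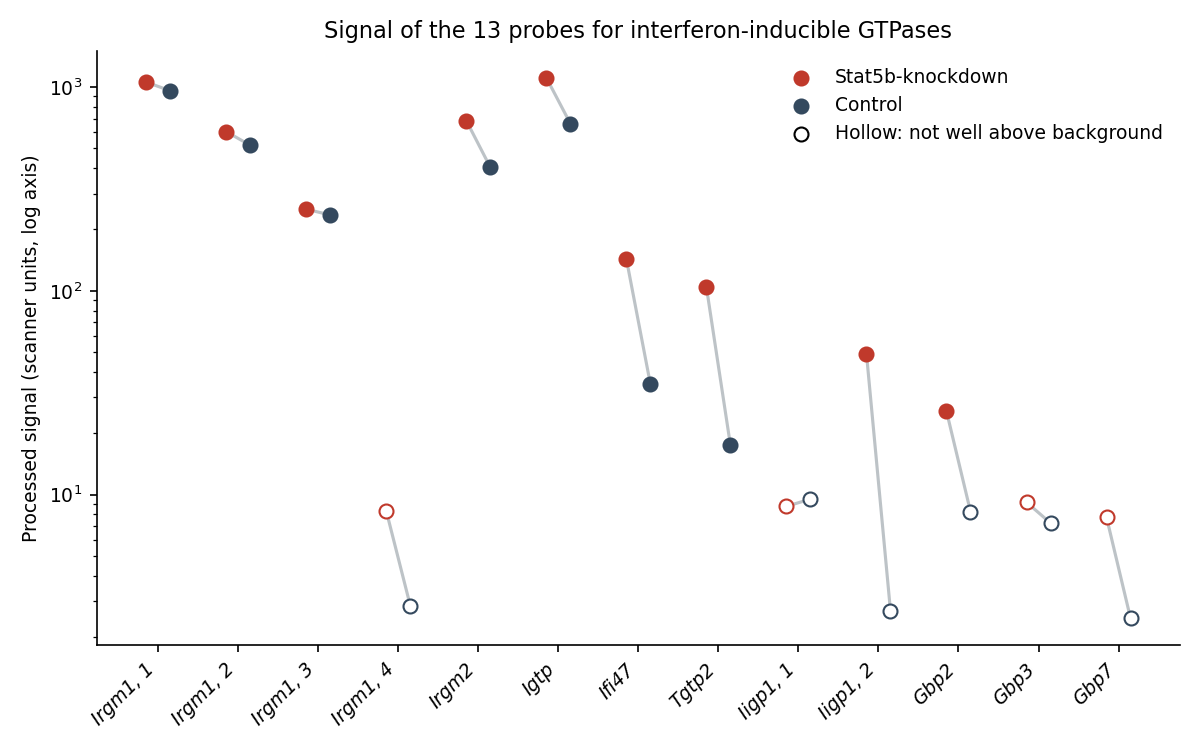
Processed signal (scanner units, log axis) of each of the 13 probes, with the Stat5b-knockdown array in red to the left of the control array in blue and hollow points for signals that did not clear background. Pairs for Irgm2, Igtp, Ifi47 and Tgtp2 slope down to the control point, the 3 bright Irgm1 pairs are nearly level, and Gbp3 and Gbp7 are hollow on both arrays.

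The regulatory GTPases were measured well clear of background, and their differences were below 2-fold. Irgm1, the regulator of autophagy and of effector GTPases, had 3 probes that cleared background on both arrays. The first had a signal of 1057 in Stat5b-knockdown cells and 958.4 in control cells. The second had 603.8 in Stat5b-knockdown cells and 517.7 in control cells, and the third 251.5 in Stat5b-knockdown cells and 235.5 in control cells. Their differences of 0.14, 0.22 and 0.09 lay close together, and the gene's mean was 0.15 ± 0.12 (1.11-fold), with 35.6% of measured genes higher. A further Irgm1 probe, designed on a separate transcript, had signals of 8.30 in Stat5b-knockdown cells and 2.85 in control cells and cleared background on neither array.

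Irgm2, a regulator found at the Golgi, had a signal of 683.7 in Stat5b-knockdown cells and 403.5 in control cells, a difference of 0.76 ± 0.20 (1.69-fold). Igtp, also called Irgm3, a regulator at the endoplasmic reticulum and lipid droplets, had 1110 in Stat5b-knockdown cells and 661.7 in control cells, a difference of 0.74 ± 0.20 (1.68-fold). The Irgm2 and Igtp differences were thus nearly the same and exceeded those of all 3 Irgm1 probes by more than the SD of 0.310 between probes of a gene. That SD is the spread of single probes about the mean of their gene. The gap between any pair of probes spreads more widely, and Irgm2 and Igtp have 1 probe each. Of all measured genes, 6.93% had a higher difference than Irgm2 and 7.22% a higher one than Igtp.

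The 2 members at least 2-fold higher were effector GTPases with dim signals. Ifi47, which is induced by interferon gamma and belongs to the effector group, had a signal of 143.2 in Stat5b-knockdown cells and 34.87 in control cells, a difference of 2.04 ± 0.23 (4.10-fold). Tgtp2, an effector that loads onto parasite vacuoles, had 104.3 in Stat5b-knockdown cells and 17.50 in control cells, a difference of 2.57 ± 0.30 (5.96-fold). By this difference Tgtp2 ranked 19 and Ifi47 ranked 56 of the 16354 measured genes, so 0.110% of genes stood above Tgtp2 and 0.336% above Ifi47. Among the 4073 measured genes with a mean signal under 100, where both lie, 6.73% were at least 2-fold higher.

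Both signals were close to background in control cells, so the size of these differences depends on how background is removed. The raw median signal of Ifi47 was 184.5 in Stat5b-knockdown cells and 79 in control cells, over a local background of 31 in Stat5b-knockdown cells and 32 in control cells. That of Tgtp2 was 148 in Stat5b-knockdown cells and 56 in control cells, over a local background of 29 in Stat5b-knockdown cells and 31 in control cells. For the 308 negative control spots the median raw signal was 36 on the Stat5b-knockdown array and 35.5 on the control array. With normexp background correction, which pulls dim differences towards 0, Ifi47 was at 1.0 and Tgtp2 at 1.08, on the 2-fold threshold, and 1.17% of all genes were then at least 2-fold higher. Irgm2 was at 0.71, Igtp at 0.64 and Irgm1 at 0.18 under that correction, so the order of the effectors, Irgm2 and Igtp, and Irgm1 was kept at smaller distances. Ifi47 then stood above Irgm2 by less than the SD of 0.310 between probes of a gene, found without that correction. Ifi47, Tgtp2, Irgm2 and Igtp have 1 probe each.

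**Figure D2:**
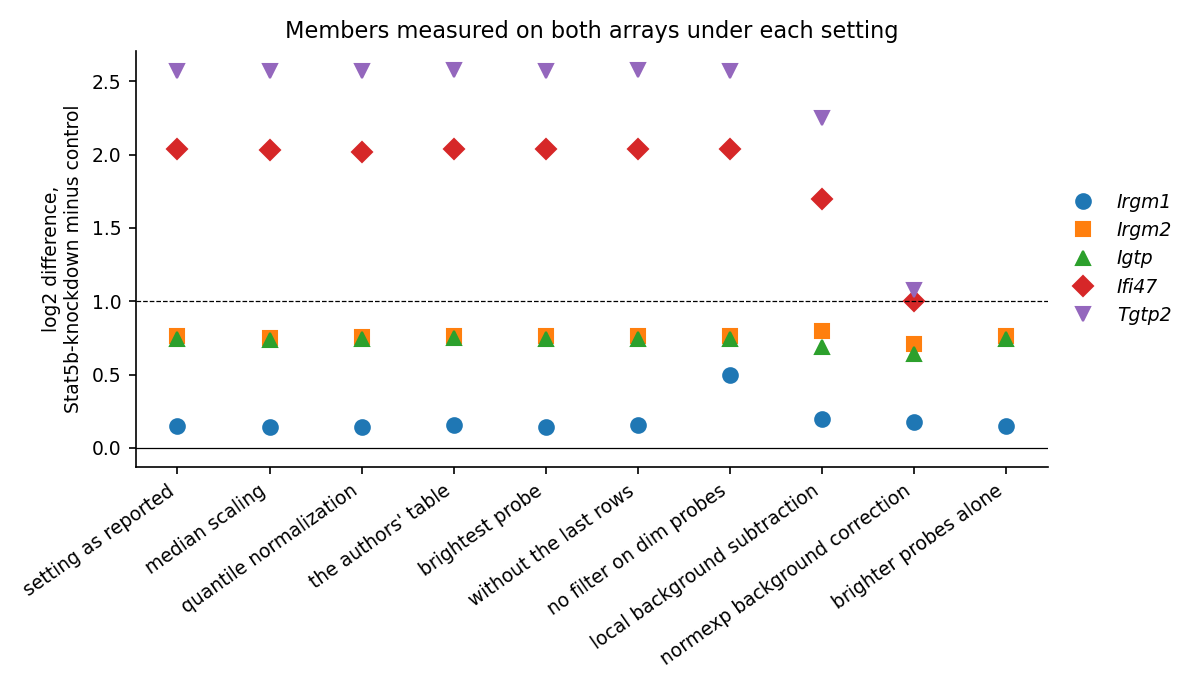
Log2 difference, Stat5b-knockdown minus control, of each of the 5 GTPase genes measured on both arrays (y axis) as reported and under 9 other ways of processing the arrays (x axis). Ifi47 and Tgtp2 move to the dashed 2-fold line with normexp correction and are missing among brighter probes, while Irgm2 and Igtp stay between 0.64 and 0.79. Irgm2 and Igtp have 1 probe each, so the settings that choose among probes could not move them.

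Iigp1, the effector studied most closely for loading onto Toxoplasma vacuoles, gave unlike values with its 2 probes. One had a signal of 49.20 in Stat5b-knockdown cells and 2.69 in control cells and cleared background in Stat5b-knockdown cells alone, at least 4.06-fold higher. This bound sets the bright signal against the lowest signal that cleared background in control cells. The other had 8.76 in Stat5b-knockdown cells and 9.51 in control cells and cleared background on neither array. Gbp2, a guanylate-binding protein that acts on cytosolic bacteria, had 25.66 in Stat5b-knockdown cells and 8.26 in control cells and also cleared background in Stat5b-knockdown cells alone, at least 2.12-fold higher. Of all 26883 genes with a probe, 0.744% cleared background in Stat5b-knockdown cells alone with a bound of at least 2-fold. Such genes differ by construction, since clearing background on 1 array alone selects for a difference and the bound of at least 2-fold sets its size.

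Gbp3 and Gbp7, guanylate-binding proteins of the same cluster as Gbp2, could not be read in these cells. Gbp3 had a signal of 9.18 in Stat5b-knockdown cells and 7.25 in control cells. Gbp7 had 7.73 in Stat5b-knockdown cells and 2.47 in control cells. All 4 values lay under the lowest signal that cleared background on their array, and no fold is given for them.

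Members of these families share coding sequence, so the probes were compared with each other. The 13 probes are 60 bases long, and the longest run that any of them shares with a probe of another immunity-related GTPase, guanylate-binding, Gvin or Mx gene on the array is 10 bases. Against all 56677 probe sequences on the array the longest shared run was 13 to 16 bases, so 0 pairs of probes are near copies. Comparing probes cannot show whether a probe pairs with the transcript of another family gene, which was not tested for any of the 13 probes. The longest run shared within the group, 10 bases between an Irgm1 and the Irgm2 probe, is shown in capitals. Each of the pair shared a longer run, of 14 bases, with another probe on the array, so the 10 bases mark no special likeness. Their differences were 0.09 and 0.76. The Tgtp2 probe, on which the largest difference rests, follows.
Irgm1: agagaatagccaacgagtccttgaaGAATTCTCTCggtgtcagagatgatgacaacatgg
Irgm2: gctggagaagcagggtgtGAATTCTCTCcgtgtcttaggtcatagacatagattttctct
Tgtp2: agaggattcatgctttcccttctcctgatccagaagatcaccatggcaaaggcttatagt
Tgtp1 and Tgtp2 encode closely similar proteins. Whether the Tgtp2 probe also pairs with Tgtp1 RNA was not tested, because transcript sequences were not used here, so its signal may hold both genes.

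The promoters of the group were searched for 2 elements known from interferon-inducible genes. GAS, written TTCNNNGAA, is a palindrome that STAT5 dimers can bind, and the core of the interferon-stimulated response element (ISRE), written GAAANNGAAA, is bound by interferon regulatory factors. Windows of 300 bases (250 before to 50 after the start of the gene, RefSeq, GRCm38.p6, both strands) were available for the members other than Iigp1. Of 32851 such windows of all genes, 1131 (3.44%) held the ISRE core, 2726 (8.30%) held GAS and 149 (0.454%) held both. Both elements were found for Irgm2, Igtp, Tgtp1, Tgtp2 and Gbp7, the ISRE core without GAS for Irgm1, Gbp2 and 1 of 2 windows of Gbp3, and neither for Ifi47 and the other Gbp3 window. A match in letters is no measured binding site, and a missing match says only that these letters are not in this window.

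In 4 of these windows the elements stood in the same arrangement, GAS, 2 further bases and the ISRE core on the strand of the gene. The joint motif, chosen after the sequences had been seen, was found in 5 of the 32851 windows (0.0152%): Igtp, Irgm2, Tgtp1, Tgtp2 and Gm12185, a gene that lies in the Irgm1 to Ifi47 cluster. The 4 stretches of 40 bases are shown because Igtp, Irgm2 and Tgtp2 had differences of 0.74 to 2.57 on the arrays (Tgtp1 had no probe), with the elements in capitals. They lie at chr11:58199501-58199540 for Igtp, at chr11:58214892-58214931 for Irgm2, at chr11:48992305-48992344 for Tgtp1 and at chr11:49064264-49064303 for Tgtp2, the first pair on the plus strand and the others on the minus strand.
Igtp: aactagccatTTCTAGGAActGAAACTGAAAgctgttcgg
Irgm2: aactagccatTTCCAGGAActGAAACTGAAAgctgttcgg
Tgtp1: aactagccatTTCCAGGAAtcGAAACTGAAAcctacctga
Tgtp2: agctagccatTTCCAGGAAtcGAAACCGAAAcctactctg
The motif began 45 bases before the start of Igtp, 75 before Irgm2, 88 before Tgtp1 and 81 before Tgtp2. The Gm12185 probe had a signal of 7.80 in Stat5b-knockdown cells and 3.95 in control cells and cleared background on neither array. Over the 250 bases before the start, Irgm2 and Igtp were identical at 68.9% of aligned positions and Tgtp1 and Tgtp2 at 62.6%, against 46.1% to 55.4% for the other pairs of members.

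The promoters of Tgtp2, Ifi47 and Irgm1 are shown over 250 bases, because the first pair had the largest differences and the third the smallest, with the elements in capitals. They are chr11:49064213-49064462 (minus strand) for Tgtp2, chr11:49076337-49076586 (plus strand) for Ifi47 and chr11:48871421-48871670 (minus strand) for Irgm1.
Tgtp2: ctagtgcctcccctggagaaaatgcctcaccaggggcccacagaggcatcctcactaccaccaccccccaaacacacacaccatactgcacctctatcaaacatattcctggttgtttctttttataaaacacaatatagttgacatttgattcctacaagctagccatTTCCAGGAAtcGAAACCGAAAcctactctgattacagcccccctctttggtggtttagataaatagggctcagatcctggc
Ifi47: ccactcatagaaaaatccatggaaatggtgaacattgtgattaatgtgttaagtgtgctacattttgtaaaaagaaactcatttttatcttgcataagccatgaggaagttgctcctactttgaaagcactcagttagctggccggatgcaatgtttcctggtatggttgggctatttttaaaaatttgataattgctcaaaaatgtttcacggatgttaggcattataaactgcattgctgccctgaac
Irgm1: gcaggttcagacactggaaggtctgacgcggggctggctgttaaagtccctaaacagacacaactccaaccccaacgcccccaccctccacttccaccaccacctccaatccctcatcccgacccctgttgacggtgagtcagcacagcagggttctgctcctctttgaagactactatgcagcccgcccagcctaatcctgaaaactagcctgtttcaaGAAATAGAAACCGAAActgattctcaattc
Irgm1 held 2 overlapping ISRE cores, which began 30 and 24 bases before its start. Ifi47, with a difference of 2.04, held neither element in this window while Irgm1, with 0.15, held the ISRE core.

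On chromosome 11 the members lie in a pair of clusters, and their neighbours were read in gene order (RefSeq GRCm38, chosen by position after the other values had been seen). In the first cluster Tgtp2 (2.57 ± 0.30) and Ifi47 (2.04 ± 0.23) are neighbours, and Irgm1 (0.15 ± 0.12) lies at its other end. Between them 9930111J21Rik2 was at -0.19 ± 0.20, 9930111J21Rik1 at 0.02 ± 0.20 and Gm5431 at -0.46 ± 0.32, 3 predicted GTPase genes of the same family. Psme2b, in the same stretch, was at 0.51 ± 0.14. The nearest measured genes outside were Trim7 (0.31 ± 0.19) beyond Irgm1 and Olfr56 (-0.34 ± 0.29) beyond Ifi47. In the second cluster Igtp and Irgm2 are neighbours and had nearly the same difference, while Gm12250, a GTPase gene beside Igtp, was at 0.10 ± 0.27 and Zfp692, beyond Irgm2, at -0.06 ± 0.14. On chromosome 3, Gbp5 beside Gbp7 was at 0.02 ± 0.20 and Kyat3 beyond Gbp2 at 0.09 ± 0.21. Differences of 0.74 and more in the chromosome 11 clusters thus stood beside family genes between -0.46 and 0.10.

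**Figure D3:**
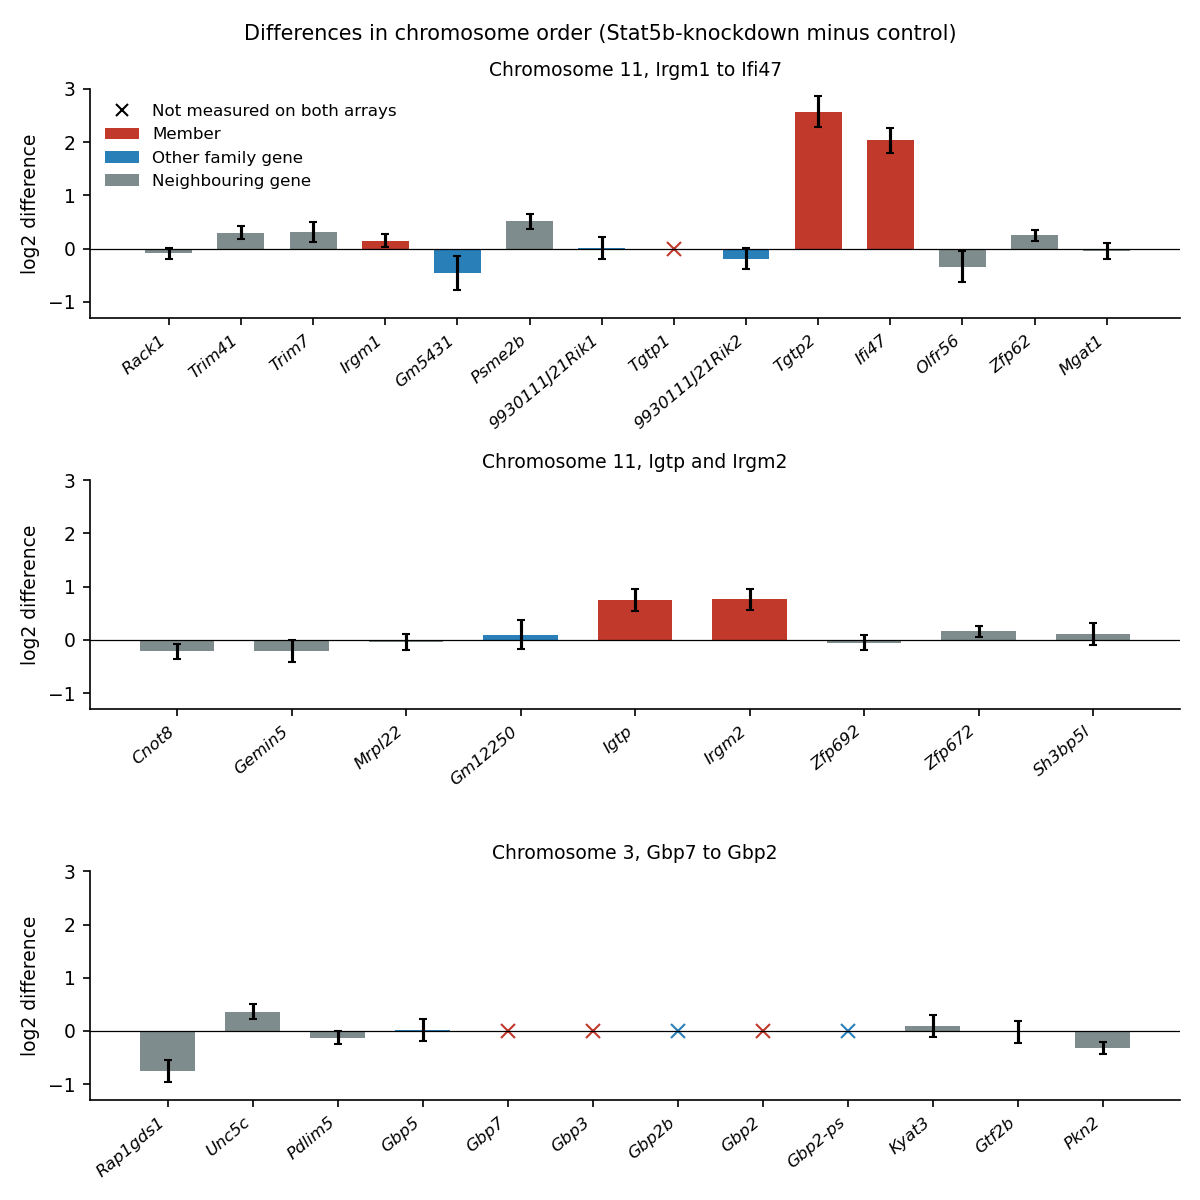
Log2 difference, Stat5b-knockdown minus control (y axis), of genes in chromosome order for 3 clusters, with members in red, other genes of the families in blue, neighbours in grey, the combined scanner software error as bars and a cross where a gene was not measured on both arrays. Tgtp2 and Ifi47 stand above 2 and Igtp and Irgm2 near 0.75, while the measured neighbours lie between -0.76 and 0.51.

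Other GTPases, of the same families and of the Gvin and Mx genes listed with them, did not share one direction. Of 26 gene symbols listed, 20 matched a probe. Of these genes 15 were measured, 9 above 0 and 6 below, with a median of 0.02 and 1 at least 2-fold higher. That gene was Gbp4, another guanylate-binding protein, with a signal of 344.6 in Stat5b-knockdown cells and 158.1 in control cells (1.12 ± 0.21). Gbp11 (0.63 ± 0.23), Gbp9 (0.63 ± 0.24), Gbp8 (0.59 ± 0.26) and Gbp6 (0.48 ± 0.20) followed. Gbp5, which helps to start the inflammasome, was at 0.02 ± 0.20 and Gbp10 at -0.22 ± 0.22. A second Gbp5 probe cleared background in control cells alone, with 6.42 in Stat5b-knockdown cells and 17.41 in control cells, and a second Gbp8 probe did so in Stat5b-knockdown cells alone, with 14.36 there and 2.51 in control cells. Whether the probes of Gbp4, Gbp6, Gbp8, Gbp9, Gbp10 and Gbp11 also pair with each other's transcripts was not tested.

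Outside the guanylate-binding genes the other family genes lay on both sides of 0, Gm5431 (-0.46, given with its cluster) and Gvin1 furthest below it. Mx1, an antiviral GTPase induced by type I interferon, was at -0.23 ± 0.15 and Mx2 at 0.27 ± 0.23. F830016B08Rik was at -0.13 ± 0.20. Irgq was at -0.08 ± 0.16, with its probes at -0.46 and 0.31. The giant GTPase gene Gvin1 cleared background in control cells alone, at least 1.89-fold higher there, with 11.10 in Stat5b-knockdown cells and 24.51 in control cells. Irgc1, Iigp1b, Gm4951 and Gbp2b cleared background on neither array.

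**Figure D4:**
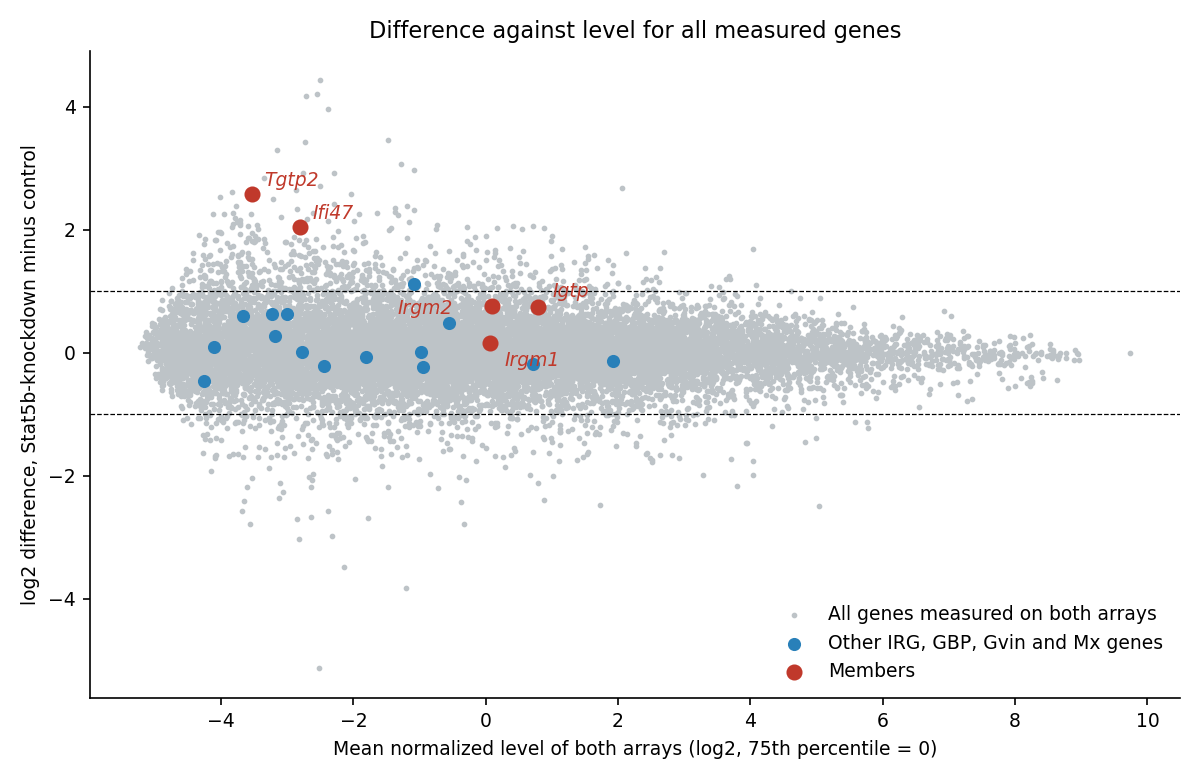
Log2 difference, Stat5b-knockdown minus control (y axis), against the mean log2 level of both arrays (x axis, 75th percentile at 0) for the 16354 measured genes, with the 5 measured members in red, 15 other family genes in blue and dashed lines at 2-fold. Tgtp2 and Ifi47 lie at low levels, where the cloud is widest, and Irgm1, Irgm2 and Igtp near level 0.

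The signalling chain that leads to these genes was read from the receptors down. The 22 listed genes were receptors, kinases, transcription factors and also inhibitors and phosphatases of this signalling. All 22 were measured, 16 lay above 0, 0 reached 2-fold in either direction, and the median was 0.26. This count and median thus mix genes that pass the signal on with genes that restrain it. The highest were Irf1, the factor that acts at ISRE elements of GTPase genes, at 0.96 ± 0.15, Irf7 at 0.89 ± 0.21 and the interferon receptor chain Ifnar2 at 0.66 ± 0.14. Both Irf1 probes were higher, one with 7991 in Stat5b-knockdown cells and 3992 in control cells, the other with 299.6 in Stat5b-knockdown cells and 157.8 in control cells. The lowest were the phosphatase Ptpn11 at -0.68 ± 0.14 and the interferon gamma receptor chain Ifngr1 at -0.21 ± 0.20.

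Interferon genes themselves were barely detected. Of 11 listed, 10 had a probe and 3 were measured, and these lay below 0: Ifnl3 at -0.53 ± 0.23, Ifna1 at -0.55 ± 0.25 and Ifna5 at -0.66 ± 0.33. Their signals were dim. Ifnl3 had 54.10 in Stat5b-knockdown cells and 77.78 in control cells, Ifna1 had 33.01 and 48.45, and Ifna5 had 17.78 and 28.06. These 3 probes all lie in the last 64 array rows, so no interferon gene was measured in the alternative that left those rows out. Ifng, the interferon that induces the GTPases most strongly, had a signal of 2.72 in Stat5b-knockdown cells and 2.40 in control cells, and Ifnb1 had 2.57 in Stat5b-knockdown cells and 2.39 in control cells, both short of background on each array.

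Interferon targets that are not GTPases had more measured genes above 0 than below it, with some on each side. Of 26 type I interferon targets that are not GTPases, 23 were measured, of which 21 had differences above 0 and 10 passed 2-fold upward. Their median was 0.91, or 0.59 with normexp correction. Ifit1, which binds viral RNA, was at 2.72 ± 0.23, Xaf1 at 2.49 ± 0.28 and Rtp4 at 2.04 ± 0.20, while Oasl1 was at -0.01 ± 0.14 and Trim30a at -0.20 ± 0.21. The Xaf1 value rests on 1 of 3 probes, and another of them cleared background in control cells alone. Of 26 interferon gamma targets that are not GTPases, 20 were measured, of which 14 had differences above 0 and 5 passed 2-fold upward, around a median of 0.43. Batf2, a transcription factor, was at 1.74 ± 0.21, and the immunoproteasome subunits Psmb8 and Psmb9 were at 1.34 ± 0.20 and 1.32 ± 0.20. The chemokine gene Cxcl11 was at -0.22 ± 0.14 and Ido1 at -0.25 ± 0.22. An excess of genes above 0 in interferon target lists was known for these arrays when the lists were drawn up, so these counts are not separate evidence for the direction of the GTPase genes.

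Factors that bring the GTPases to vacuoles lay on both sides of 0. Of 16 listed, 15 were measured, 6 above 0 and 9 below, with a median of -0.07 and 1 at least 2-fold higher. That was the ubiquitin ligase Trim21 (1.07 ± 0.21), followed by the autophagy genes Atg5 (0.40 ± 0.20) and Atg12 (0.23 ± 0.20), parts of the conjugation machinery that GTPase loading needs. The adaptor Sqstm1 was lowest (-0.87 ± 0.13), and the lectin Lgals3, which marks broken vacuoles, was at -0.65 ± 0.11.

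**Figure D5:**
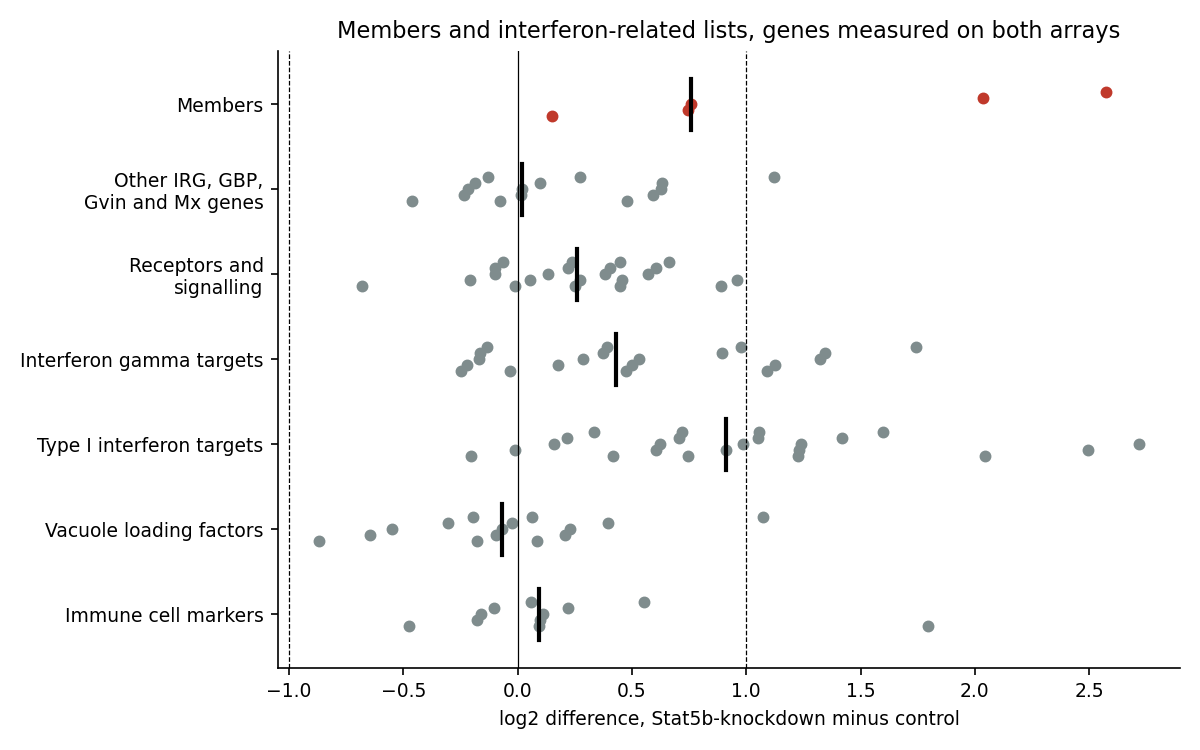
Log2 difference, Stat5b-knockdown minus control (x axis), of each gene measured on both arrays in the GTPase group and 6 related lists (y axis), with black bars at the medians and dashed lines at 2-fold. Medians were 0.76 for the GTPase group, 0.91 for type I interferon targets, 0.43 for interferon gamma targets, 0.26 for receptors and signalling, and between -0.07 and 0.09 for the other 3 lists.

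Immune cells can express these GTPases, so their markers are given beside the result. Of 18 markers of microglia, macrophages and other immune cells, 11 were measured, 7 above 0 and 4 below, around a median of 0.09, and 1 passed 2-fold upward. Their summed scaled signal, in units of the array's 75th percentile, was 30.4 in Stat5b-knockdown cells and 28.5 in control cells. This sum, like those below, takes in every probe of all listed genes, also those that did not clear background. Its largest parts were a Ptprc probe, with 4831 in Stat5b-knockdown cells and 3288 in control cells, and an Itgam probe, with 4632 and 4250. Aif1, Cx3cr1, P2ry12, Tyrobp, C1qa, C1qc and Nkg7 cleared background on neither array. The highest were Tmem119 (1.80 ± 0.24), Ptprc (0.55 ± 0.20) and Csf1r (0.22 ± 0.15), and the lowest were Cd68 (-0.48 ± 0.12) and C1qb (-0.18 ± 0.28). The Ptprc value rests on 1 of 7 probes, and the other 6 cleared background on neither array. Of 8 endothelial cell and pericyte markers, 5 were measured with a median of 0.26. These were Pdgfrb (2.20 ± 0.33), Rgs5 (0.46 ± 0.26), Pecam1 (0.26 ± 0.23), Acta2 (-0.12 ± 0.12) and Cdh5 (-0.75 ± 0.23). Among brighter probes alone 1 of them was left, at -0.12, and the Pdgfrb signal of 76.09 in Stat5b-knockdown cells stood against 16.61 in control cells, near the lowest that cleared background. The summed scaled signal of this list was 90 in Stat5b-knockdown cells and 100 in control cells. Nearly all of it came from Acta2, so it does not describe the other markers. The brightest Acta2 probes had 24920 and 18900 in Stat5b-knockdown cells and 24650 and 24310 in control cells. Of 8 stem cell markers, 4 were measured, Prom1 (0.01 ± 0.23), Msi1 (-0.10 ± 0.16), Vim and Nes, with a median of -0.11. This median leaves out Olig2, with 53.21 in Stat5b-knockdown cells and 6.28 in control cells, at least 4.40-fold higher. It also leaves out Gfap, where 1 probe had 15.15 in Stat5b-knockdown cells and 23.20 in control cells, at least 1.53-fold higher in control cells. The stem cell list had a summed scaled signal of 212 in Stat5b-knockdown cells and 233 in control cells, nearly all from Vim and Nes. Vim had a signal of 88540 in Stat5b-knockdown cells and 96090 in control cells, and Nes had 15870 and 18170. The part of other cell types in the GTPase differences was not tested, and in bulk RNA fewer cells of a type and less RNA per cell cannot be told apart.

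Of the 13 GTPase probes 0 lie in the last 64 array rows, which one alternative left out, the last probe being in row 304. The authors' deposited table, which holds log2 values with the 75th percentile at 0, gave between 0.15 and 2.58 for the 5 measured genes, in the same order.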

How the data were processed

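Total RNA of 2 samples, 1 of Stat5b-knockdown and 1 of control cells, was labelled with Cy3 and hybridised to 1 single-colour Agilent array each, per the labels' protocols. The authors deposited scanner output with an intensity for each spot. Its headers name Agilent Feature Extraction (version 12.1.0.3), the protocol GE1_1200_Jun14, the design 074809 and the build mm9. The processed intensity is background-corrected and not scaled between arrays. The authors' deposited table holds log2 values. Each column equalled log2 of the processed signal minus 8.94, within 0.001 for 100% of 56294 single-spot probes, and its median was -3.83 in both columns, so scale, centring and direction were read from the values. This table served for 1 alternative.

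An array had 62976 spots, and the 59305 non-control spots covered 56605 probes. Outlier spots (94 on the Stat5b-knockdown array and 112 on the control array) were left out, and 0 were saturated. Signals under 1 were set to 1, log2 was taken, spots of a probe were averaged and the array's 75th percentile was subtracted. Probes were named by accession through the RefSeq gene table (34566), by a current symbol (9190), by a synonym (275) or by the file's own symbol (2145), and 10429 had no name. A gene's difference is the mean over its probes that cleared background on both arrays. A gene that cleared background on 1 array was given a bound against the higher of the lowest signal that cleared background and its own signal on the other array. The number of arrays limits the precision, and no test was run.

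Named were all members and probes, Stat5b, the other family genes and, of each other list, the 3 highest and 2 lowest measured genes, with others named as chosen afterwards. Members and lists were chosen with earlier results of these data known. The value of 1 gene of the signalling list is not reported here. Likeness of pattern was not computed, since 2 arrays give 1 difference per gene. Alternatives changed the scaling, background correction, source of values, filter on dim probes, rule for several probes and the rows used. The normexp correction (offset 50) was run on the median signal, because the files hold no mean signal. Promoters were aligned with Biopython 1.88. Values were computed in Python 3.11.15 and limma 3.58.1, and the code was tested on simulated data.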

Additional observations from a re-analysis of the deposited data

How the results depend on the processing

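Over 9 alternatives, of which local background subtraction was added after the data had been seen, the median of the measured GTPase genes ranged from 0.71 to 1.63. Irgm2 and Igtp hold this median in place, so it does not show how Ifi47 and Tgtp2 move. With every probe kept, the median was 1.63 over 9 genes, 5 genes were at least 2-fold higher, Stat5b was at -1.49 and the median of all genes was 0.10. That setting takes in probes that cleared background on 1 array or on neither, whose differences are not measured values. Among brighter probes alone, with a signal of at least 100 on both arrays, 0 genes were at least 2-fold higher, because Ifi47 and Tgtp2 were no longer tested, which left 3 genes. With local background subtraction Ifi47 was at 1.70 and Tgtp2 at 2.25, and with normexp correction at 1.0 and 1.08. Irgm2 stayed between 0.71 and 0.79 and Igtp between 0.64 and 0.75 under all 9, but most of these could hardly move them. Each has 1 probe, bright on both arrays, so the settings for dim, brighter and several probes returned the reported value. The authors' table and the array without its last rows could shift it only by a scaling constant. The range therefore comes mainly from the background corrections.

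Over all genes 600 were at least 2-fold higher and 394 lower as reported. Those counts were 191 and 167 with normexp correction, 1282 and 1000 without the filter, and 294 and 261 among brighter probes. Other family genes above 0 numbered 9 of 15 as reported, 8 of 15 with quantile normalization, 4 of 8 among brighter probes and 12 of 20 without the filter. The interferon genes' median was -0.24 with normexp correction and 0.10 without the filter. No interferon gene was measured among brighter probes or without the last array rows. The endothelial markers' median was -0.12 among brighter probes, with 1 gene measured. Signal over background limits Ifi47, Tgtp2, Iigp1, Gbp2, Gbp3 and Gbp7. No paired analysis was possible because each group had 1 array. No replicate could be left out for the same reason.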

Other observations

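Genes of antigen presentation by MHC class II, which interferon gamma induces through Ciita, were mostly short of background, and all those named here were chosen after their values were seen. H2-Aa, H2-Ab1 and H2-Eb1, the chains of the class II molecules, cleared background on neither array. Ciita cleared it in Stat5b-knockdown cells alone, at least 1.26-fold higher, with 1 of its 4 probes. Cd74, the invariant chain, was at 1.12 ± 0.27. Of class I, H2-K1 was at 0.47 ± 0.14, H2-D1 at 0.39 ± 0.20 and B2m at 0.18 ± 0.14, below the differences of Irgm2 and Igtp.

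Among the vacuole-loading factors the ubiquitin-like proteins of the LC3 family, chosen after their values were seen, lay on both sides of 0. Gabarapl1 was at -0.55 ± 0.14, Map1lc3b at -0.30 ± 0.12, Gabarap at -0.19 ± 0.15, Map1lc3a at -0.09 ± 0.20 and Gabarapl2 at 0.08 ± 0.15. The 3 Sqstm1 probes were at -0.66, -0.79 and -1.16. Calcoco2, another adaptor, cleared background in control cells alone, at least 2.20-fold higher there.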
